A study of Mus musculus with 6 samples.

Results

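The Adam genes encode membrane proteins with a metalloprotease domain and a disintegrin domain, and the mouse arrays examined here carried 50 probes for 32 of them among 55681 probes in all. Members were the non-control probes whose gene name in the files is Adam followed directly by a digit, so the secreted Adamts proteases were not included. By what is known of where each gene is expressed, 24 probes of 19 genes formed a testis class, 25 probes of 12 genes a non-testis class, and a single probe read Adam7, a gene of the epididymis.

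Whole testes were taken from 3 Gipr knockout mice and 3 wild-type mice, all C57BL/6 and 8 weeks old, and each testis RNA was read on its own 1-colour array. The gene Gipr makes the receptor of GIP, a hormone that the gut releases after a meal and that acts on beta cells through cyclic AMP. How the knockout allele was made, which exons it lacks and whether it is lost in every cell are not given in the sources used here. No treatment is labelled for either genotype, and the series design gives 3 animals of each.

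ADAM proteins are made as precursors, and they lose their prodomain as they mature, the sperm members often the protease domain too. In the broadly expressed members the protease cuts other membrane proteins just outside the cell, which releases growth factors and starts Notch signalling. Many of the testis members have lost the catalytic residues. They reach the surface of sperm as heterodimers that are folded by testis chaperones in the endoplasmic reticulum, and mice lacking Adam2 or Adam3 make sperm that fail to pass from the uterus into the oviduct.

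The probes for the testis members on which the comparison turns are shown first, 5′ to 3′ on the sense strand, as the deposited files give them. Their positions are those of the files on build mm9, and exon and untranslated-region annotation on that build was not used here. The Adam25 and Adam39 probes lie in 1 cluster of genes and are shown together because the 21 bases in capitals occur in both, so either probe may read some of the other gene's RNA.
Adam25, chr8:41841247-41841306, plus strand: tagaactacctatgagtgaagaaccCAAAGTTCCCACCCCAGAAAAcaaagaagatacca
Adam39, chr8:41912135-41912194, plus strand: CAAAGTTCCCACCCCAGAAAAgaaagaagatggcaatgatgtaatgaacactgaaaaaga

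With that pair aligned at the shared run without gaps, 35 bases overlapped and 32 of them were identical, with 3 mismatches. The next probes mark a testase gene that was lower without overlap (Adam26a), the lowest difference of the class (Adam21), the highest (Adam2), and a sperm protein needed for fertilisation (Adam3). No part of these is in capitals, since they share runs of at most 8 bases with the probe of any other member gene. Only probes were compared with each other, so a match to another part of a related gene's RNA would not be seen.
Adam26a, chr8:44653864-44653923, minus strand: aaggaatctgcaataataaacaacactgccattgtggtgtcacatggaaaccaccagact
Adam21, chr12:82659925-82659984, minus strand: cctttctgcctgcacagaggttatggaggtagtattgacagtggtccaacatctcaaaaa
Adam2, chr14:66648532-66648591, minus strand: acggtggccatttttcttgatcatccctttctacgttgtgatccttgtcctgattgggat
Adam3, chr8:25817871-25817930, minus strand: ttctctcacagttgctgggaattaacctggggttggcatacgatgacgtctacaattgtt

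Signals are given as relative signal, the background-corrected spot intensity divided by the 75th percentile of its array, and they serve to set the same probe side by side across animals, never 1 probe against another. Gipr served as the check of the labels. Its probe read 0.196, 0.202 and 0.229 in knockout testes and 1.06, 1.11 and 1.35 in wild-type testes, 5.58-fold lower (limma adjusted p = 0.00310). Between 70.6% and 76.0% of the spots of an array were well above background. Arrays of different genotype correlated nearly as closely (Pearson r over the 38884 tested probes of 0.994 to 0.997) as arrays of 1 genotype (0.995 to 0.997). All arrays lay on 1 slide, with the knockout samples in slide row 1 and the wild-type samples in row 2. For every value below, genotype and place on the slide thus cannot be told apart. Replicates 1, 2 and 3 of each genotype lay in slide columns 1, 2 and 3. Only 18 of 38884 tested probes passed an adjusted p of 0.05, which is 0.0463%.

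None of the Adam probes passed that threshold. Of the 50 probes, 41 were bright enough to be tested, namely all 24 of the testis class, 16 of the non-testis class and Adam7, and their adjusted p-values in limma ran from 0.622 to 0.993. Without adjustment, 4 of the 41 had a limma p under 0.05 and were lower in the knockout, namely Adam25 and 1 probe each of Adam26a, Adam34 and Adam17, against 3.27% of all tested probes in that direction (7.66% in both). Higher in the knockout, against 4.38% of all tested probes, was only 1 probe of Adam22, which was tested solely because it was above background on the knockout arrays, so nothing is read from its p. In 7 of the 41 (17.1%) the knockout and wild-type values did not overlap, against 13.4% of all tested probes. Of these, 5 were lower, against 5.54% of all probes, and 2 were higher, against 7.84%. The smallest p that exact permutation can give for 1 probe in this design is 0.1.

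The testis class leaned to lower signal in the knockout, by small amounts. Of its 24 probes, 21 had a lower mean in knockout testes (87.5%, against 47.4% of all tested probes), with a median difference of -0.13 on the log2 scale and a range of -0.28 to 0.10. Without the 3 probes found to share sequence with another member (1 each of Adam25, Adam39 and Adam26a), 18 of 21 were lower and the median was -0.07. The rest were not compared with whole transcripts of other members. The median over all tested probes was 0.008. Of the 15 non-testis probes above background on all arrays, 9 were lower, the median was -0.04 and the range ran from -0.87 to 0.14. Without any scaling between arrays 17 of the 24 testis probes were lower (70.8%, against 43.5% of all tested probes), and the median was -0.12. In a bulk sample, fewer cells of a type and less RNA per cell cannot be told apart.

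**Figure D1:**
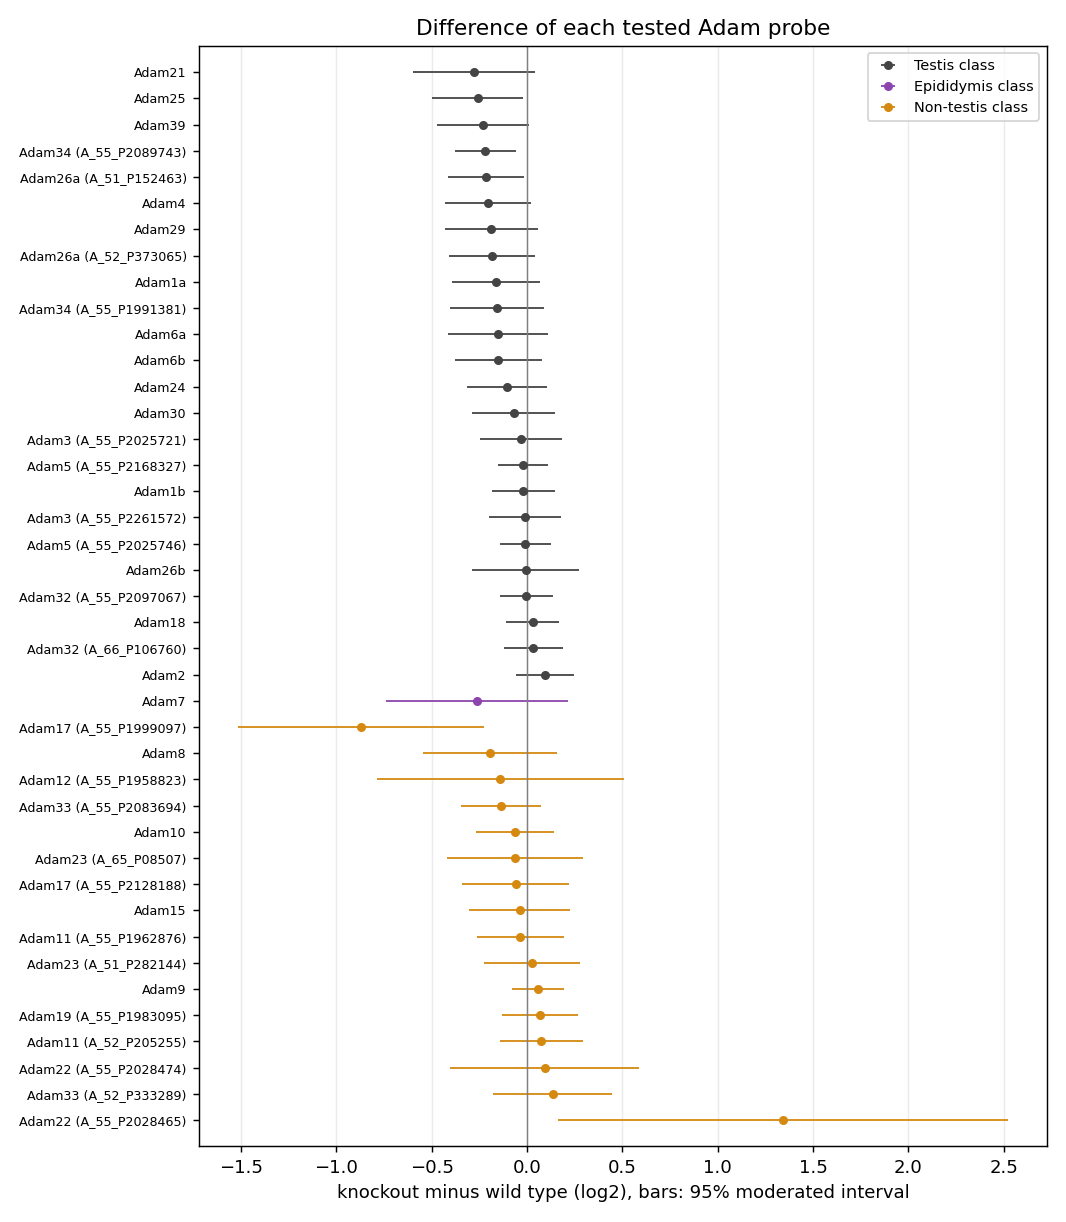
Log2 difference of each tested Adam probe (Gipr knockout minus wild type), with its 95% moderated interval from limma (3 arrays per genotype); colours mark the testis, epididymis and non-testis classes. The testis probes lie between -0.28 and 0.10, most of them left of 0, while the non-testis probes spread wider. The Adam22 point at 1.34 is set against wild-type signal not called above background, and its size depends on the background correction.

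Within the testis class, the difference was not shared by all 3 knockout animals. Measured as the median over the 24 probes of the log2 deviation from each probe's mean over the 6 arrays, the class stood at -0.06, 0.06 and -0.15 in knockout replicates 1, 2 and 3 and at 0.10, 0.08 and -0.003 in wild-type replicates 1, 2 and 3. Knockout replicate 2 thus lay inside the wild-type range. Knockout replicate 3 gave the lowest of the 6 values for 16 of the 24 probes and knockout replicate 1 for 6, while knockout replicate 2 gave the lowest for 0. Knockout replicate 2 lay above the lowest wild-type array for 20 of the 24 probes, replicate 1 for 9 and replicate 3 for 2. Without knockout replicate 3 the class median was -0.06 and 16 of the 24 probes were lower. Without knockout replicate 2 it was -0.18 and 22 were lower, and still 0 probes passed.

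**Figure D2:**
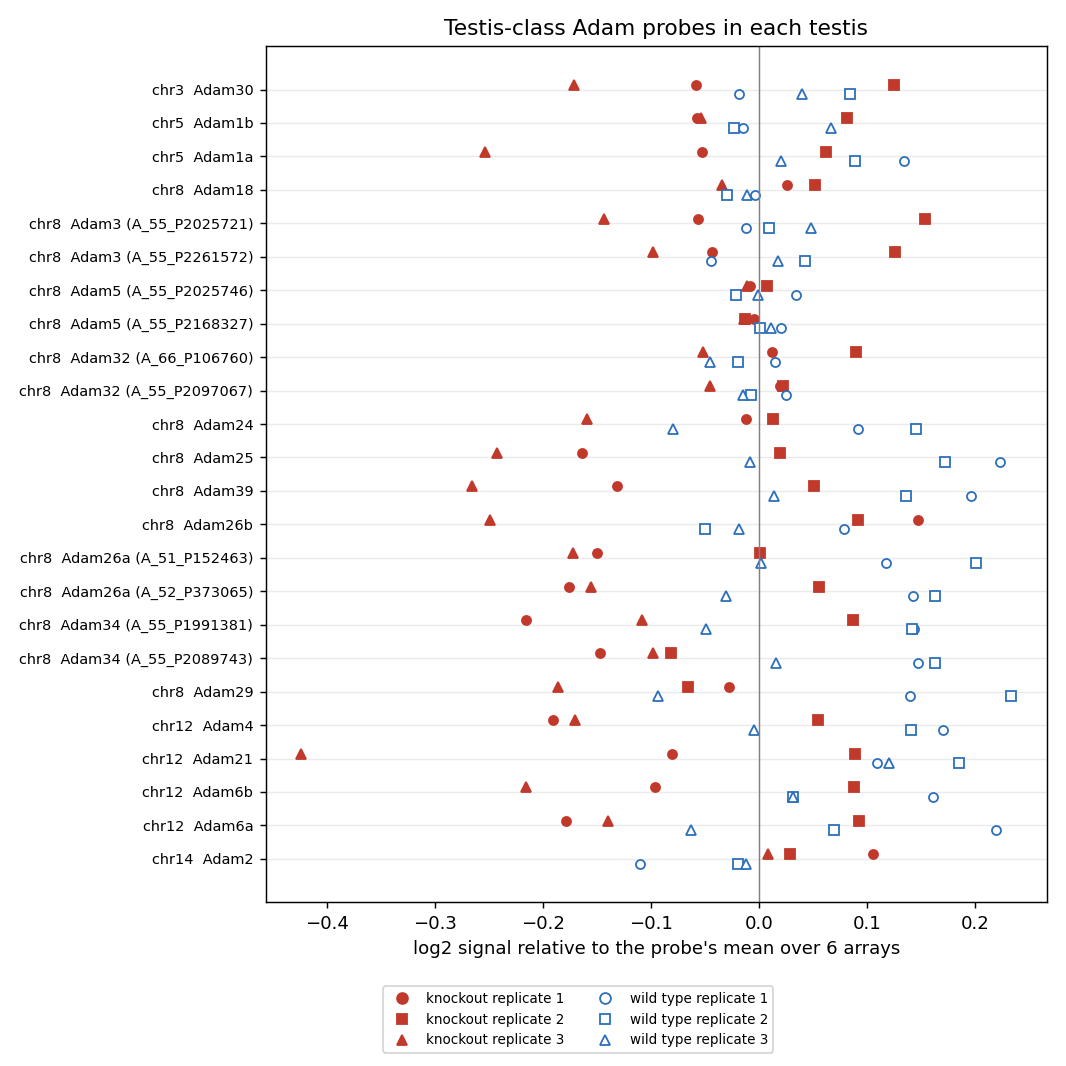
Log2 signal of the 24 testis-class probes in each testis, relative to the probe's mean over the 6 arrays, ordered by chromosome and position with knockout animals (filled) above wild-type animals (open). Knockout replicate 3 is the lowest point for 16 probes, and knockout replicate 2 mostly lies among the wild-type points.

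The testases are a cluster of testis-specific proteases on chromosome 8, made in developing germ cells. Adam25 (testase 2) read 5.28, 6.00 and 5.003 in knockout testes and 6.91, 6.67 and 5.88 in wild-type testes. Knockout replicate 2 was above wild-type replicate 3, so the groups overlapped, and the difference was -0.26 ± 0.10 (log2, SE; limma unadjusted p = 0.0388, adjusted p = 0.640). Its neighbour Adam39, whose probe shares the capitals shown above, read 4.13, 4.69 and 3.76 in knockout testes and 5.19, 4.97 and 4.57 in wild-type testes, a difference of -0.23 ± 0.10. Again only knockout replicate 2 reached into the wild-type range, and the 2 probes cannot be counted as independent readings. Adam24 (testase 1), which lies next to them, differed by -0.11 ± 0.09, and its groups overlapped.

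Adam26a (testase 3) read 4.16, 4.62 and 4.10 on the probe shown in knockout testes, against 5.01, 5.31 and 4.63 in wild-type testes. The groups were apart, but knockout replicate 2 and wild-type replicate 3 were nearly equal, and the difference was -0.21 ± 0.08 (limma unadjusted p = 0.0390, adjusted p = 0.640). A further Adam26a probe differed by -0.18 ± 0.09, but the files list it under Adam26a, Adam26b and Adam34 alike, so its signal belongs to no single gene. Adam34 had 2 probes of its own. One read 0.709, 0.741 and 0.733 in knockout testes and 0.869, 0.879 and 0.793 in wild-type testes, all knockout values below all wild-type values, a difference of -0.22 ± 0.07 (limma unadjusted p = 0.0160, adjusted p = 0.623). The other differed by -0.16 ± 0.10, the same direction, with overlap. Adam26b, in the same stretch, differed by -0.01 ± 0.12, which left its 95% interval at -0.29 to 0.27.

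Grouped by position after the values were seen, the chromosome 8 genes fell into stretches with different readings. The 3 probes of Adam24, Adam25 and Adam39 had a median of -0.23 and the 5 probes of Adam26a, Adam26b and Adam34 one of -0.18. The first median is the value of the Adam39 probe, which shares sequence with Adam25. The second is that of the Adam26a probe listed under 3 genes, so both rest on probes that are not independent readings. The 7 probes of Adam18, Adam3, Adam5 and Adam32, which lie side by side elsewhere on the chromosome, had a median of -0.008 and a range of -0.03 to 0.03. The difference between these stretches was not tested. Leaving out that last stretch, 16 of 17 testis probes were lower (94.1%, against 47.4% of all tested probes), with a median of -0.16. That stretch was left out with its values near 0 already known, so the larger share follows from the choice and supports nothing. The 17 also include the probes that share sequence with another member. The 8 testis probes on other chromosomes alone had a median of -0.15.

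The sperm surface proteins known from fertilisation read close to equal in the 2 genotypes. Adam2 (fertilin beta), the partner of several testis ADAMs, read 45.2, 42.9 and 42.3 in knockout testes and 38.9, 41.5 and 41.7 in wild-type testes. The groups did not overlap, and Adam2 was the highest of the class at 0.10 ± 0.06 (limma unadjusted p = 0.182, adjusted p = 0.707). Its 95% interval, -0.06 to 0.25, spans 0.

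Adam3 (cyritestin), required for sperm to enter the oviduct, had 2 probes. The probe shown read 11.04, 12.4 and 10.6 in knockout testes and 11.03, 11.7 and 11.5 in wild-type testes, a difference of -0.01 ± 0.08. The second read 143, 165 and 134 in knockout testes and 147, 149 and 153 in wild-type testes, at -0.03 ± 0.09. On both probes knockout replicate 2 was the highest array and knockout replicate 3 the lowest, and the 95% intervals reached from -0.20 to 0.18 (probe shown) and from -0.25 to 0.19. The sign of both turned under quantile normalization, to 0.0059 (second probe) and 0.013 (probe shown).

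Adam32, Adam18 and Adam5 are further sperm surface members. Their 5 probes lay between -0.02 and 0.03, with SEs of 0.05 to 0.06. After Adam2, the highest differences of the class were those of 1 Adam32 probe (136, 143 and 130 in knockout testes, against 136, 133 and 130 in wild-type testes, 0.03 ± 0.06) and Adam18 (39.1, 39.8 and 37.5 in knockout testes, against 38.3, 37.6 and 38.1 in wild-type testes, 0.03 ± 0.06). In both, the groups overlapped. One Adam5 probe did not overlap (74.2, 73.7 and 73.7 in knockout testes, against 75.5, 74.5 and 74.99 in wild-type testes), yet its difference was only -0.02 ± 0.05.

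Fertilin alpha is encoded by a pair of genes, Adam1a and Adam1b, of which Adam1a protein stays in the endoplasmic reticulum and Adam1b protein reaches sperm. Adam1a differed by -0.16 ± 0.09 and Adam1b by -0.02 ± 0.07, both with overlap. Adam6a and Adam6b, whose products join the Adam2 and Adam3 complex on sperm, differed by -0.15 ± 0.11 and -0.15 ± 0.09. Adam4, on the same chromosome as Adam21, differed by -0.20 ± 0.09, and the germ cell genes Adam29 and Adam30 by -0.19 ± 0.10 and -0.07 ± 0.09.

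Adam21, a germ cell gene, had the lowest difference of the testis class. It read 4.76, 5.35 and 3.75 in knockout testes, against 5.43, 5.72 and 5.47 in wild-type testes. The groups did not overlap, although knockout replicate 2 came within a small margin of wild-type replicate 1, and the difference was -0.28 ± 0.13 (limma unadjusted p = 0.0795, adjusted p = 0.656). Knockout replicate 3 set much of it, since without that array the difference was -0.13.

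Adam7 is made in the epididymis and handed to sperm there, and its probe was dim in whole testis. It passed background on 2 of the 3 arrays of knockout testes and on all 3 of wild-type testes, at 0.0239, 0.0187 and 0.0143 in knockout testes and 0.0217, 0.0256 and 0.0200 in wild-type testes. The groups overlapped and the difference was -0.26 ± 0.20 (limma adjusted p = 0.725), with a range of -0.45 to -0.05 over the alternatives run. Since it was tested only through the wild-type arrays, where it was above background throughout, its difference is a description. Of 11 epididymis markers, 6 were bright enough to be tested, of which 3 were lower and 3 higher in the knockout. Their differences ran from -0.31 to 0.75, with the lowest p for Defb15 at -0.27 ± 0.08 and Cst8 at -0.16 ± 0.10. Crisp1, Rnase9, Lcn5, Lcn8 and Lcn9, which define that tissue, were not tested.

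The probes of the non-testis class moved in no common direction. Adam17, the sheddase of tumour necrosis factor, gave the lowest difference of all members on 1 dim probe, and 1 dim probe of Adam22, a neural member without protease activity, was above background in the knockout alone.
Adam22, chr5:8092341-8092400, minus strand, shown because it passed background in 1 genotype alone: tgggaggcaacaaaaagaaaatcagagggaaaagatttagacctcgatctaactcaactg

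The Adam22 probe read 0.0151, 0.0544 and 0.0489 in knockout testes and 0.0127, 0.0119 and 0.0163 in wild-type testes. It was clear of background on 3 arrays of knockout testes and on 0 of wild-type testes, so the wild-type level is only a bound. The knockout mean was 2.49-fold higher when each wild-type array took the higher of the probe's signal and the lowest signal called well above background. It is no firm lower bound, since 0.0163 in wild-type replicate 3 was not called above background while 0.0151 in knockout replicate 1 was. Knockout replicate 1 overlapped the wild-type range, and the probe did not pass (limma adjusted p = 0.639). The difference of the measured means, 1.34 on the log2 scale, was 0.33 with another background correction (normexp) and ran from 1.01 to 1.93 when 1 array was left out. A second tested Adam22 probe read 0.0876, 0.0914 and 0.0647 in knockout testes and 0.0619, 0.0708 and 0.0973 in wild-type testes, a difference of 0.09 ± 0.21 with overlap.

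One Adam17 probe read 0.0172, 0.0190 and 0.0205 in knockout testes, against 0.0257, 0.0533 and 0.0300 in wild-type testes. The groups did not overlap, wild-type replicate 2 stood well above the others, and the difference was -0.87 ± 0.27 (limma unadjusted p = 0.0158, adjusted p = 0.622). The second Adam17 probe has 52 of its 60 bases in common with the first, shifted by 8, and read 0.0283, 0.0300 and 0.0336 in knockout testes and 0.0274, 0.0343 and 0.0343 in wild-type testes. Its difference was -0.06 ± 0.12, with overlap. With normexp correction the first probe differed by -0.26, and without wild-type replicate 2 by -0.56. The difference between the 2 probes was not tested.

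**Figure D3:**
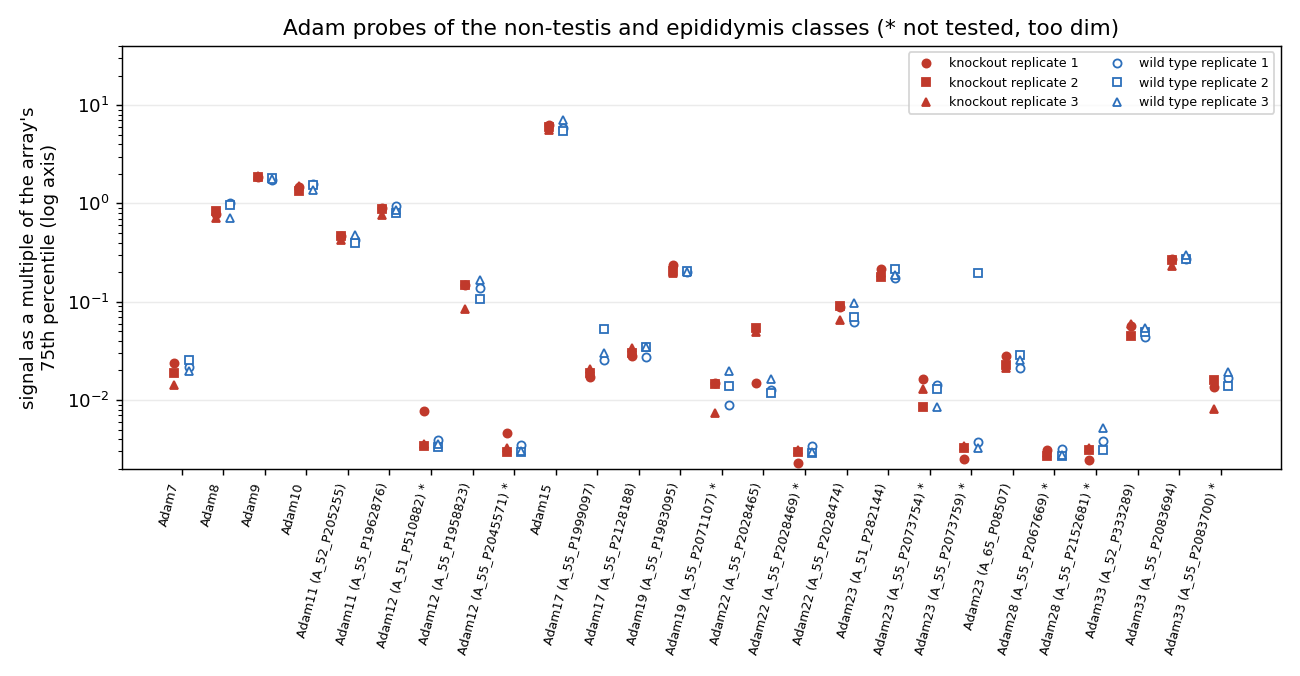
Relative signal of the non-testis Adam probes and of Adam7 in each testis on a log axis, knockout animals (filled) left of wild-type animals (open). The Adam22 and Adam17 probes that differ most are among the dim ones, and a single wild-type array stands out on an Adam23 probe.

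Adam10, which starts Notch signalling by cutting the receptor, read 1.45, 1.34 and 1.52 in knockout testes, against 1.59, 1.54 and 1.37 in wild-type testes, at -0.06 ± 0.09. Adam9, a widely expressed sheddase, read 1.85, 1.84 and 1.88 in knockout testes and 1.75, 1.83 and 1.78 in wild-type testes. Its groups did not overlap, but the difference was 0.06 ± 0.06. Adam15, also widely expressed, and Adam19 differed by -0.04 ± 0.11 and 0.07 ± 0.08, with overlap.

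Adam8, a member made by leukocytes, read 0.773, 0.841 and 0.710 in knockout testes and 1.0001, 0.969 and 0.715 in wild-type testes. Wild-type replicate 3 lay among the knockout values, and the difference was -0.19 ± 0.15 (limma adjusted p = 0.725), running from -0.35 without that array to -0.11 without wild-type replicate 1. It was the next lowest of the class, followed by the tested Adam12 probe at -0.14 ± 0.27. That probe read 0.147, 0.150 and 0.0842 in knockout testes and 0.137, 0.108 and 0.168 in wild-type testes, and without knockout replicate 3 its difference was 0.13.

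Probes of the same gene disagreed in sign for 4 genes with several tested probes, Adam33, Adam11, Adam23 and Adam32. For Adam33, a mesenchymal member, 1 probe read 0.0567, 0.0452 and 0.0599 in knockout testes and 0.0443, 0.0488 and 0.0537 in wild-type testes, at 0.14 ± 0.13. The other Adam33 probe read 0.274, 0.265 and 0.231 in knockout testes, against 0.272, 0.275 and 0.296 in wild-type testes, at -0.13 ± 0.09. In both probes the groups overlapped.

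For the neural member Adam11, 1 probe read 0.467, 0.468 and 0.422 in knockout testes and 0.424, 0.394 and 0.473 in wild-type testes, at 0.07 ± 0.09. The other read 0.907, 0.869 and 0.770 in knockout testes and 0.948, 0.808 and 0.850 in wild-type testes, at -0.03 ± 0.09. Adam23, a further neural member, read 0.215, 0.179 and 0.196 in knockout testes and 0.176, 0.214 and 0.188 in wild-type testes on 1 probe, at 0.03 ± 0.10. These groups all overlapped. The second tested Adam23 probe read 0.0280, 0.0229 and 0.0213 in knockout testes and 0.0213, 0.0286 and 0.0254 in wild-type testes, at -0.06 ± 0.15. The Adam32 probe not given above read 27.8, 27.9 and 26.6 in knockout testes and 27.9, 27.3 and 27.2 in wild-type testes, at -0.002 ± 0.06. These overlapped as well, and every 95% interval in this group of 4 genes spanned 0.

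The 9 probes that were not tested belonged to Adam12 (2 probes), Adam19, Adam22, Adam23 (2 probes), Adam28 (2 probes) and Adam33. Adam28, a lymphocyte member, was thus the only gene of the 32 without a tested probe, and it was not well above background on any array.

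The genes that act with the ADAM proteins gave 0 calls among 61 tested, against the 0.0463% of all probes. For the chaperones, processing enzymes and partners of the sperm ADAMs, 12 of 19 were lower in the knockout and the median difference was -0.03. The lowest p-values belonged to Prss37, a serine protease homologue needed for Adam3 maturation (63.2, 82.4 and 65.8 in knockout testes, against 83.2, 77.4 and 80.0 in wild-type testes, -0.20 ± 0.11), and to Tpst2, a protein sulfotransferase, at -0.12 ± 0.07. Ace, whose testis form is also needed for Adam3 placement, differed by -0.19 ± 0.12, and the chaperone Hspa5 by 0.07 ± 0.06. Knockout replicate 2 was within the wild-type range of Prss37, as for most testis Adam probes.

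Regulators of the ADAM sheddases comprise inhibitors, adaptor proteins and tetraspanins. Of 17 tested, 11 were higher in the knockout, with a median of 0.03. Sh3d19, an adaptor that binds ADAM tails, read 0.194, 0.204 and 0.205 in knockout testes and 0.181, 0.166 and 0.166 in wild-type testes. Its groups did not overlap, at 0.23 ± 0.07 (limma unadjusted p = 0.0112, adjusted p = 0.595). Tspan33, which brings Adam10 to the cell surface, differed by 0.17 ± 0.08, the metalloprotease inhibitor Timp2 by -0.15 ± 0.09 and the Adam17 stabiliser Frmd8 by 0.10 ± 0.06.

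Among substrates of Adam10 and Adam17, 13 of 23 tested genes were higher, with a median of 0.02. An unadjusted limma p under 0.05 was reached by 1 of the 23, which was lower in the knockout, against 3.27% of all tested probes in that direction. Of the next genes by p, N-cadherin (Cdh2) differed by 0.15 ± 0.06, the Notch ligand Jag1 by -0.14 ± 0.07 and the macrophage receptor Csf1r by -0.18 ± 0.11. Lgi4 and Lgi2, secreted ligands of the neural ADAMs, differed by -0.16 ± 0.07 and -0.09 ± 0.08.

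Germ cell markers were set beside the testis class, since its genes are expressed in those cells. The round spermatid list stood at -0.04, 0.03 and -0.12 in knockout replicates 1, 2 and 3 and at 0.03, 0.09 and -0.02 in wild-type replicates 1, 2 and 3, with knockout replicate 3 lowest and replicate 2 highest of the knockout arrays, as for the testis Adam probes. The elongating spermatid, Leydig and sperm ADAM maturation lists had that order of knockout arrays too. In the spermatogonial and spermatocyte lists knockout replicate 3 was instead the highest of the 6 arrays and replicate 2 the lowest knockout array. Their values in knockout replicates 1, 2 and 3 were 0.005, -0.06 and 0.15 (spermatogonia) and 0.03, -0.03 and 0.06 (spermatocytes). In wild-type replicates 1, 2 and 3 they were 0.01, -0.03 and -0.03 (spermatogonia) and 0.02, -0.001 and -0.05 (spermatocytes). Of the 8 round spermatid genes 6 were lower and 0 passed. Their summed relative signal was 153 to 170 in knockout testes and 162 to 178 in wild-type testes. The acrosomal gene Acrv1 had the lowest p of that list, at -0.21 ± 0.10, and the sperm-egg fusion gene Izumo1 followed at -0.16 ± 0.10. Elongating spermatid markers, with Odf1 at -0.30 ± 0.11 and Akap4 at -0.19 ± 0.11, had 5 of 8 lower and summed to 2554 to 2929 in knockout testes and 2737 to 2833 in wild-type testes. Spermatocyte markers, with the synaptonemal complex gene Syce2 at -0.24 ± 0.09 and the meiotic break gene Spo11 at 0.14 ± 0.09, had 2 of 8 lower (155.98 to 161 in knockout testes, 160 to 163 in wild-type testes), and spermatogonial markers, with Dmrt1 at 0.14 ± 0.08 and the GDNF receptor Gfra1 at -0.27 ± 0.16, had 4 of 7 lower (6.53 to 7.60 in knockout testes, 6.89 to 7.10 in wild-type testes).

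Knockout replicate 3 was also the lowest of the 6 arrays in the Leydig and macrophage lists and the highest in the Sertoli and peritubular myoid lists. In the macrophage list it stood at -0.29, but wild-type replicate 1 stood about as far out at 0.25. In the Sertoli list it stood at 0.17, with wild-type replicates 2 and 3 lowest at -0.09 and -0.10. For Leydig cells, 6 of 7 markers were lower, with the testosterone synthesis gene Hsd17b3 at -0.74 ± 0.26 and the luteinizing hormone receptor Lhcgr at -0.25 ± 0.13. The list stood at -0.01, 0.05 and -0.46 in knockout replicates 1, 2 and 3 against 0.12, 0.29 and 0.12 in wild-type replicates 1, 2 and 3, with sums of 47.5 to 53.7 in knockout testes and 54.6 to 58.2 in wild-type testes. For Sertoli cells 6 of 8 were higher and 0 passed. An unadjusted limma p under 0.05 was reached by 3 of the 8, all higher, against 4.38% of all tested probes in that direction. Rhox8 differed by 0.24 ± 0.07 and the hormone receptor Fshr by 0.51 ± 0.19, and the list had sums of 317 to 332 in knockout testes and 302 to 306 in wild-type testes. Macrophage and leukocyte markers, relevant to Adam8, had 6 of 8 lower, with Ptprc at -0.27 ± 0.14 and C1qa at -0.26 ± 0.14, and sums of 6.12 to 7.45 in knockout testes and 7.04 to 8.31 in wild-type testes. Peritubular myoid markers had 5 of 6 higher, with Myh11 at 0.25 ± 0.10 and Des at 0.15 ± 0.10, and sums of 58.1 to 68.4 in knockout testes and 64.1 to 68.5 in wild-type testes. Outside the Sertoli list, that unadjusted p was reached by 1 lower gene each of the Leydig, spermatocyte and elongating spermatid lists. In the myoid list 1 higher gene reached it, and in the spermatogonial, round spermatid and macrophage lists 0 did. The part of these marker lists in the Adam values was not tested.

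**Figure D4:**
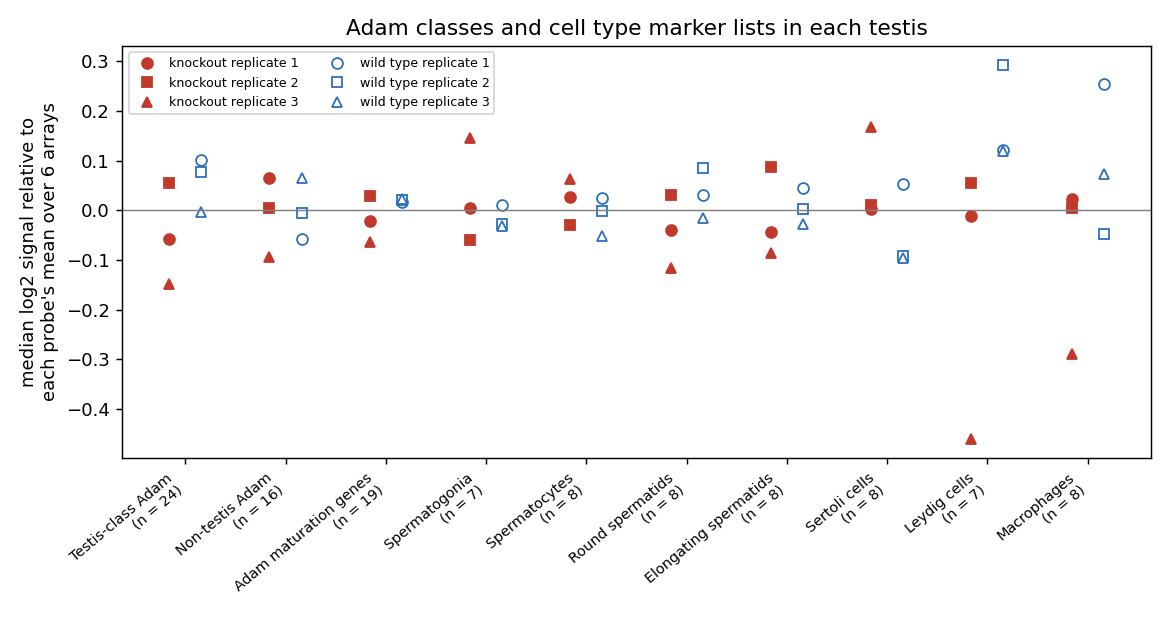
Median log2 signal of each list in each testis, relative to each probe's mean over the 6 arrays, for the Adam classes, the maturation genes and the cell type marker lists, knockout animals (filled) left of wild-type animals (open). The testis Adam class, the maturation genes, round and elongating spermatids and Leydig cells all have knockout replicate 3 lowest and replicate 2 highest of the knockout animals. Spermatogonia, spermatocytes and Sertoli cells have knockout replicate 3 highest of the 6 animals.

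Promoters from RefSeq (GRCm38.p6, windows of 300 bases that reach past the start) were held for 9 genes of the testis class, and 9 promoters for 7 genes of the non-testis class. Only the leading part of each window was searched, and its last bases were left out. The cyclic AMP response element TGACGTCA, read on both strands, was in 0 of the 9 testis promoters and 0 of the 9 non-testis promoters, against 1.55% of 32851 promoters. Its core TGACG, which the full element contains, was in 0 of 9 testis promoters and in 1 of 9 non-testis promoters, that of Adam10, against 17.8% of all. The letters TATAAA were in 3 of 9 testis promoters (Adam29, Adam6a and Adam6b) and 0 of 9 non-testis promoters, against 12.4%. These are matches of letters in a short window and do not say whether a factor binds.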

How the data were processed

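The authors deposited scanner output of 6 Agilent 1-colour arrays (design 028005), 1 per testis, read with Feature Extraction 10.7.3.1 per the file headers. The processed signal used is the linear intensity of a spot after correction for background. The value table deposited by the authors holds these intensities rescaled by array to a median of 200, and served as an alternative.

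Processed signals were turned to log2, outlier spots were dropped, spots of a probe were averaged, and each array's 75th percentile was subtracted. Probes entered the test when all 3 arrays of either genotype had them well above background. Genotypes were compared with limma 3.58.1 (lmFit, eBayes; R 4.3.3), two-sided, with Benjamini-Hochberg adjustment over all 38884 tested probes and a call at adjusted p under 0.05. The procedure was tested on simulated data. Errors of differences are moderated SEs, and 3 arrays per genotype limit the precision. A listed gene was represented by its tested probe with the highest mean.

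Per-array values are given for Adam2, Adam3, Adam25 and Adam26a, members with an unadjusted p under 0.05, the 3 lowest and 3 highest differences of each class and genes whose probes disagreed in sign. A few further members are given so too, chosen after their values were seen. Per list, up to 4 genes of lowest p are named (2 for marker lists); 1 of them is not reported here. Members and lists were chosen with earlier results of these data known. Gene names are those of the files, updated through RefSeq GRCm38.p6 for the lists.

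Replicate numbers were not used to pair the animals in the main test. Deviations of same-numbered arrays, which share a slide column, correlated at 0.058, -0.024 and -0.003. Other pairs of a knockout and a wild-type array ran from -0.044 to 0.045. With 3 arrays per genotype these values cannot show that there was no pairing. Alternatives were other background, scaling, filter, probe-to-gene, weighting and block settings and leaving out each array.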

Additional observations from a re-analysis of the deposited data

How the results depend on the processing

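Of the Adam probes, 0 passed under any of the alternatives run, and so did 0 of the genes that act with them. The median of the testis class stayed below 0 throughout, between -0.18 and -0.06 when 1 array was left out. It was -0.07 (21 probes, 18 lower) without the 3 probes found to share sequence. That alternative was chosen after seeing the data, as was the unscaled signal. The non-testis median ran from -0.05 to 0.03 when 1 array was left out (16 or 17 probes) and was 0.042 with array weights (16 probes). These sets include the Adam22 probe tested only through the knockout arrays, unlike the 15 probes above background on all arrays. The count over all probes was 18, against 30 with normexp correction, 35 with trended robust eBayes, 29 with array weights, 7 with no filter on dim probes and 6 with the replicate block, and 5 to 26 when 1 array was left out. The block gave the same Adam medians and again 0 Adam calls. Signs that turned were all of differences no larger than that of the tested Adam12 probe, -0.14, which is near the testis-class median of -0.13. Besides the probes given next, probes of Adam1b, Adam5, Adam11, Adam15, Adam19, Adam23 and Adam26b and the other Adam32 probe turned in at least 1 alternative. The Adam3 probe whose sequence is shown read 0.013 under quantile normalization and 0.0013 unscaled, and its other probe 0.0059 under quantile normalization. When 1 array was left out, these probes ran from -0.077 to 0.036 and from -0.12 to 0.033, the highest without knockout replicate 3. Adam12 read 0.12 with array weights and ran from -0.30 to 0.13 over the arrays left out, the second Adam22 probe from -0.048 to 0.28 and the Adam32 probe from -0.0032 to 0.067. The first Adam33 probe read -0.014 with normexp. The cause was not tested. Signal over background limits Adam7, Adam17, Adam22, Adam23 and Adam28, and slide row cannot be told apart from genotype.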

Other observations

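Probes that the files name otherwise but whose accession is now an Adam gene were not members. The probe named Gm5346, now Adam34l, lies beside the Adam26a and Adam34 genes on chromosome 8 and read 0.274, 0.301 and 0.279 in knockout testes and 0.328, 0.321 and 0.299 in wild-type testes, at -0.15 ± 0.07 on the log2 scale. The groups overlapped by knockout replicate 2 against wild-type replicate 3. The probe named 4930529F22Rik, now Adam20, lies between Adam25 and Adam39 and read 2.31, 2.54 and 2.37 in knockout testes and 2.75, 2.91 and 2.51 in wild-type testes, at -0.18 ± 0.08, again with that single overlap.

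An untested Adam23 probe had a processed signal of 1.97, 2.36 and 2.62 in knockout testes and 2.78, 144 and 2.53 in wild-type testes, so wild-type replicate 2 alone was well above background. The 2 tested Adam23 probes showed no such gap for that animal.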
